A study of Mus musculus with 4 samples.

Results

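The nuclei described here were the 150 nuclei with the highest combined level of Dcx, Sox11, Igfbpl1 and Cd24a among 13270 nuclei kept from 22402 cell barcodes of mouse medial prefrontal cortex. A nucleus was kept when it had at least 500 genes and 800 unique molecular identifiers (UMIs, each standing for 1 captured RNA molecule) and at most 5% of its UMIs in mitochondrial genes. The score of a nucleus was the mean, over the 4 genes, of log1p of the UMIs per 10000, and a member needed at least 2 of the 4 genes. These genes were chosen as markers of neuroblast-like immature neurons, and the profile of the members went only partly with that label: 54 of the 150 also had at least 2 of the GABAergic lineage genes Dlx1, Dlx2, Dlx5, Dlx6, Dlx6os1, Sp8 and Sp9, 72 had none of them, and 24 had 1. They are called Dlx/Sp-positive members, Dlx/Sp-negative members and members with 1 Dlx/Sp gene, a split made after the earlier results of these data were known.

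Immature neurons born after birth in the rodent forebrain arise mainly from the ventricular-subventricular zone beside the lateral ventricle. Dividing progenitors there give rise to neuroblasts, which migrate in chains towards the olfactory bulb and mature into GABAergic interneurons. Along that path the cells carry doublecortin (Dcx), a microtubule-binding protein of migrating neurons, the SoxC factor Sox11 and polysialylated NCAM, and the lineage is patterned by the Dlx homeobox genes with Sp8, Sp9, Meis2 and Pax6.

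Nuclei came from 4 samples of microdissected medial prefrontal cortex of C57BL/6J mice aged 9 weeks, taken 24 hours after an injection of the psychedelic DOI or of saline, with 1 female and 1 male sample in each group. All 4 expressed scFLARE2, a light- and calcium-gated transcriptional reporter, together with TRE-mCherry-p2a-bReaChES, a red fluorescent protein and an opsin under a TRE promoter. The nuclear RNA was sequenced with a droplet 3' method. The labels do not tie the 4 barcode endings to the samples, so they are called libraries 1 to 4, no comparison of DOI with saline or of the sexes was made, and all nuclei count as 1 sample without a test. No replicate error can therefore be given: the intervals are 95% intervals (exact binomial for shares, exact conditional binomial for ratios of summed UMIs) that cover counting error only, and a spread between libraries is shown where it can be.

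Depth and quality differed between the groups of nuclei. The 4 libraries held 19968985 to 57947155 UMIs, 157575088 in all, in 1596 to 4303 kept nuclei. The median depth was 3050.5 UMIs in the Dlx/Sp-positive members, 3602 in those with 1 Dlx/Sp gene, 7564 in the Dlx/Sp-negative members and 9019.5 in the 13120 other kept nuclei. The median mitochondrial share was 2.90% in the Dlx/Sp-positive members, against 1.50% in the Dlx/Sp-negative members and 1.53% in the other kept nuclei. Libraries shared 50 barcode sequences, which touched 59 kept nuclei and no member. Scrublet, a caller of doublets, gave a score above 0.25 to 279 kept nuclei, 2 of them members, both with 1 Dlx/Sp gene.

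As the choice of members fixes, the 4 genes were high in them, and their values are given as a description. Dcx was detected in 132 members and Sox11 in 133, while Igfbpl1 was detected in 57 and Cd24a, a cell-surface glycoprotein, in 15. Among all kept nuclei Dcx was detected in 37.5%, Sox11 in 19.3%, Igfbpl1 in 1.02% and Cd24a in 0.829%, so Dcx and Sox11 alone marked far more nuclei than the members. The pair of Dcx and Sox11 with neither of the other genes put 85 nuclei among the members, of which 58 were Dlx/Sp-negative and 11 Dlx/Sp-positive. All 4 genes were detected in 4 members, each of them Dlx/Sp-positive. Dcx, Sox11 and Igfbpl1 without Cd24a were found in 22 members, 18 of them Dlx/Sp-positive. Igfbpl1, an immature neuron marker that encodes an insulin-like growth factor binding protein, had a UMI in 42 of 54 Dlx/Sp-positive members, 8 of 24 with 1 Dlx/Sp gene and 7 of 72 Dlx/Sp-negative members.

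The score rested on few molecules. A member had a median of 4 UMIs of the 4 genes together and at most 20, and 25 members had only 2, all at a depth of at most 4450 UMIs. Rank by score went with the split, as the plot of score by rank shows. Ranks 1 to 50 held 40 Dlx/Sp-positive and 2 Dlx/Sp-negative members, ranks 51 to 100 held 12 and 32, and ranks 101 to 150 held 2 and 38. Median depth rose over the same ranks from 2718 to 4576 and 7953.5 UMIs. The last member scored 0.5885 (rank 150, 8909 UMIs, no Dlx/Sp gene) and the first nucleus left out 0.5882 (rank 151, 10991 UMIs, no Dlx/Sp gene) and the scores ran on without a gap. In all 1366 kept nuclei had at least 2 of the 4 genes.

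**Figure D1:**
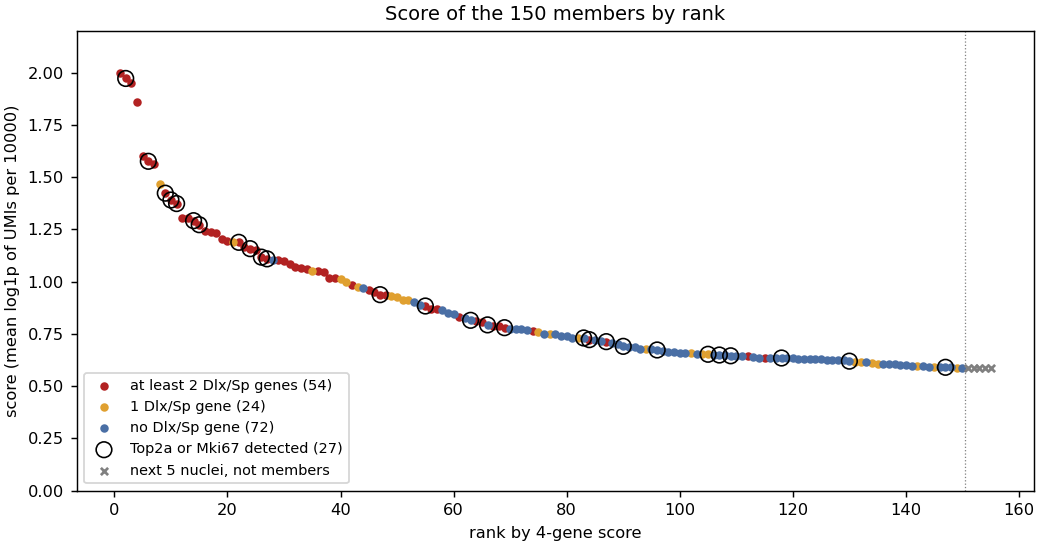
Score of each member (vertical axis, mean log1p of UMIs per 10000 over Dcx, Sox11, Igfbpl1 and Cd24a) against its rank, coloured by the number of Dlx/Sp genes detected, with circles around nuclei with Top2a or Mki67 and crosses for the next 5 nuclei. Nuclei with at least 2 Dlx/Sp genes make up 40 of the first 50 ranks and 2 of the last 50, and the score runs on without a step at rank 150.

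Members were not spread evenly over the libraries. Library 1 held 62 members, library 2 held 58, library 3 held 11 and library 4 held 19, which was 1.44% (1.11 to 1.84), 1.63% (1.24 to 2.10), 0.689% (0.345 to 1.23) and 0.498% (0.300 to 0.776) of the kept nuclei of each. Libraries 1 and 2 thus held 80% of the members. The Dlx/Sp-positive members numbered 22, 24, 7 and 1 in libraries 1 to 4. Library 4 stood apart, with 1 Dlx/Sp-positive nucleus among 3817 kept (0.0262%, interval 0.000663 to 0.146), although it held 16 Dlx/Sp-negative members (0.419%, 0.240 to 0.680). It was also the library in which the most barcodes, 4510, had been removed by the quality limits, and its kept nuclei had the highest median mitochondrial share, 2.07% against 0.766% to 1.49% in the others. The part of the mitochondrial share in the count of members was not tested.

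**Figure D2:**
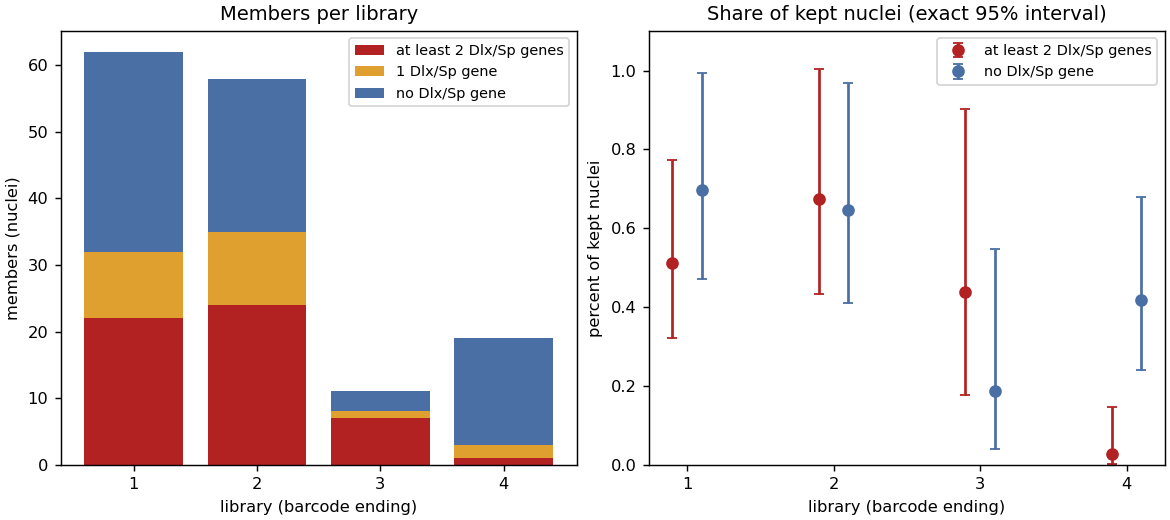
Left, number of members in each library, stacked by the number of Dlx/Sp genes detected. Right, the share of kept nuclei (percent, with exact 95% binomial intervals) that were Dlx/Sp-positive or Dlx/Sp-negative members. The Dlx/Sp-positive share is 0.439% to 0.675% in libraries 1 to 3 and 0.0262% in library 4.

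The Dlx/Sp genes themselves defined the split, so their levels are given without a comparison. In the 54 Dlx/Sp-positive members the antisense transcript Dlx6os1 was detected in 52 nuclei, Dlx1 in 31, Dlx6 and Sp8 in 18 each, Sp9 in 16, Dlx2 in 9 and Dlx5 in 4. Reads of Dlx6os1 and of Dlx6, which overlap on opposite strands (mm10, chromosome 6, 6820189 to 6871592 for Dlx6os1), may be shared where strand was not used in counting. Among the other 13120 kept nuclei 562 had at least 2 Dlx/Sp genes (4.28%, or 0.660% after thinning each nucleus to 1500 UMIs), and 16 of these also had Igfbpl1. In the cortical interneuron set described further on, a mature GABAergic type, 36.7% had at least 2, or 4.67% after thinning, so at full depth the share was like that of the members. In the committed oligodendrocyte precursor set, a cell type that should lack them, the shares were 2.00% and 0.671%. In the 150 members the share was 36.0% (28.3 to 44.2), or 24.2% after thinning. It moved with the quality limit and the rule: members chosen again with at most 1% mitochondrial UMIs were Dlx/Sp-positive in 7.33%, with at most 20% in 46.7%, and with at least 3 of the 4 genes in 60.4%.

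Taken as 1 group, the 150 members were compared with the 13120 other kept nuclei. Calls rested on CPM, the UMIs of a gene per 1000000 UMIs, summed over nuclei. A call needed a ratio of at least 2-fold over all libraries together and the same direction, of any size, in every library with at least 10 nuclei on each side, with at least 100 UMIs in all and at least 10 in the smaller group or 10 expected there at equal rates. Of 10166 genes that could be called, 317 were higher (3.12%) and 135 lower (1.33%), and the median log2 ratio was 0.19. The count of higher genes was 642 without library 4 and 1110 with 100 members in place of 150. A gene that entered only through its own UMIs in the members could hardly be lower. Counts of gene lists are therefore taken over genes with at least 10 UMIs expected, of which 1.64% were higher and 1.51% lower, with a median of 0.13. On that basis 4 of 5 GABAergic lineage transcription factors were higher, as were 4 of 21 microtubule and growth cone genes, while none of 17 glutamate receptor subunits and none of 17 synaptic vesicle and mature neuron genes was called.

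Outside the lists, the 4 genes with the largest ratios were transcription factors and a long noncoding RNA, followed by Tmem131l (log2 ratio 1.88, 1.60 to 2.15). Pbx3, a TALE homeobox factor, was at 611, 641, 183 and 60.8 CPM in the members of libraries 1 to 4, against 24 to 75.5 in the other nuclei of those libraries, a log2 ratio of 3.35 (3.21 to 3.50). It was high in libraries 1 and 2 and lowest in library 4, the library with 1 Dlx/Sp-positive member. Sox2ot, a long noncoding RNA gene that spans Sox2 on the same strand, had a log2 ratio of 3.29 (3.22 to 3.37). Tox3, an HMG-box factor, followed at 2.35 (2.14 to 2.57) and Dach1, a transcriptional regulator, at 2.22 (1.94 to 2.48), although Dach1 stood at -0.51 in members chosen with at most 1% mitochondrial UMIs. Tshz2, a teashirt zinc finger factor, had a log2 ratio of 1.63 (1.47 to 1.78) but the opposite order of libraries, with 182, 266, 769.9 and 1081 CPM in libraries 1 to 4, and a ratio of -2.07 in members with at least 3 of the 4 genes. Tshz2 was detected in 12 of 54 Dlx/Sp-positive members, 2 of 24 with 1 Dlx/Sp gene and 14 of 72 Dlx/Sp-negative members. The 2 large subsets are described apart, in comparisons added after the split was seen.

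The 54 Dlx/Sp-positive members differed from the rest of the tissue in many genes. Compared with the other kept nuclei, 1379 of 5027 genes were higher (27.4%) and 813 lower (16.2%), with a median log2 ratio of 0.52. Among the 3404 genes with at least 10 UMIs expected, 12.4% were higher and 23.9% lower, with a median of 0.03. Microtubule genes were more often higher than lower in them, guidance receptors went both ways, and subunits of glutamate and GABA-A receptors were lower where they were called. Only libraries 1 and 2 had 10 or more of these nuclei and decided the calls, and the single nucleus of library 4 is left out of the values by library that follow.

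Of the transcription factors of the olfactory bulb interneuron lineage beside the Dlx and Sp genes, Meis2 could be counted. Meis2, a TALE homeobox partner of Pax6 and Dlx factors, reached 4452, 4066 and 6209 CPM in libraries 1 to 3, against 363 to 462 in the other kept nuclei, a log2 ratio of 3.40 (3.30 to 3.49). Every one of these libraries was far above the other nuclei, while the single nucleus of library 4 had 293 CPM. It was the 1 factor of the list with 10 or more UMIs expected. The rest entered through their own UMIs in the group where they were high, could not have come out lower, and are given as values that support nothing. Pax6, which directs dopaminergic and other olfactory bulb fates, was at 184, 266 and 211 CPM, against 1.89 to 4.67. Tshz1, needed for olfactory bulb interneuron maturation, was at 173 CPM against 15.2 CPM, and Etv1, an ETS factor of granule and periglomerular cells, at 304 CPM against 46.6 CPM.

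Early neuronal regulators that could be counted were higher or not called. In the list of SoxC and early neuronal regulators 4 of 6 genes were higher and none lower (median log2 ratio 1.06). Tcf4, a class I bHLH partner of proneural factors, stood at 3604, 3093 and 3406 CPM in libraries 1 to 3, against 767 to 911, a log2 ratio of 2.03 (1.92 to 2.15). Sox4, the SoxC relative of Sox11, was at 101 CPM against 7.3 CPM from 20 UMIs, and Myt1, a zinc finger factor that favours neuronal differentiation, at 198 CPM against 15.6 CPM, both through their own UMIs. The pallial factors Eomes, Neurod1, Neurod4 and Neurog2 had no UMI in the 54 nuclei, where 3 UMIs equal 15.2 CPM. Such zeros cannot show that a gene was absent. Levels of Neurod2, Neurod6, Tbr1 and Prox1, of the same list, are not given singly here.

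Of the microtubule and growth cone list 8 of 15 genes were higher and none lower (median 1.22). Dclk2, a doublecortin-like kinase, was at 819.8, 718 and 723 CPM in libraries 1 to 3, against 66.4 to 79.4, a log2 ratio of 3.29 (3.04 to 3.52). Tiam2, a Rac exchange factor of neurite growth, was at 1032, 614 and 995 CPM, against 76.2 to 83.8, and its log2 ratio was 3.33 (3.09 to 3.55). Both genes were high in each of the 3 libraries. Stmn1, which destabilises microtubules in growing cells, was at 441 CPM against 103 CPM, a log2 ratio of 2.10 (1.78 to 2.41), with its highest level in library 2. The tubulin Tubb2b, of which 19 UMIs were seen, was at 96.4 CPM against 8.13 CPM, and Dpysl3, a growth cone phosphoprotein, at 162 CPM against 26 CPM, both again through their own UMIs.

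Migration and guidance receptors split into higher and lower genes, 4 and 4 of 18 (median 0.13). Over all genes with at least 10 UMIs expected 12.4% were higher and 23.9% lower. The count of lower receptors was thus near the share over all genes. The polysialyltransferases add polysialic acid to NCAM. St8sia2 was at 169.6, 127 and 121 CPM in libraries 1 to 3, against 5.39 to 10.5, and St8sia4 at 127, 127 and 90.4 CPM, against 14.7 to 19.4. These values rest on 27 and 25 UMIs, through which alone both genes entered, so they are a description. Robo2, a Slit receptor, was at 2657, 3058 and 2200.2 CPM, against 521 to 545, a log2 ratio of 2.34 (2.21 to 2.46). Its relative Robo1 went the other way, at 438, 220.1 and 271 CPM against 1056 to 1285, a log2 ratio of -1.98 (-2.37 to -1.61). The neuregulin receptor Erbb4, known to guide chain migration, was at 3435, 5306 and 5486 CPM, against 883 to 1176 (log2 ratio 2.27, 2.18 to 2.37). Dab1, the adaptor of Reelin receptors, was lower at 438, 313 and 60.3 CPM, against 1318 to 1472 (log2 ratio -2.07, -2.44 to -1.73). Nrp1, a semaphorin and VEGF receptor, had 2 UMIs, a log2 ratio of -4.06 (-7.11 to -2.21) that turned to 0.27 with at least 3 of the 4 genes required.

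Levels of GABAergic transmitter genes are given as values. Gad1 and Gad2, the GABA-synthesising enzymes, were at 339, 232 and 663 CPM and 367, 429 and 573 CPM in libraries 1 to 3, against 29.5 to 40.8 and 34.4 to 50.2 in the other nuclei. Both entered only through their own UMIs in these nuclei. In the olfactory bulb interneuron list 2 of 4 genes were higher and 1 lower. Over all genes with at least 10 UMIs expected 12.4% were higher and 23.9% lower. Synpr, a synaptic vesicle protein of granule cells, was at 644 CPM against 116 CPM (log2 ratio 2.48, 2.21 to 2.73) and Nrxn3, a presynaptic neurexin, at 22103 CPM against 5737 CPM (log2 ratio 1.95, 1.90 to 1.99). Cpne4, a copine, was at 25.4 CPM against 196 CPM (log2 ratio -2.95, -4.57 to -1.73), but at 0.14 on that scale with 250 members. The maturation markers Th, Trh and Scgn had no UMI, and Calb2, the calretinin gene, had 5. In these nuclei 3 UMIs equal 15.2 CPM, so the zeros cannot show that a gene was absent. Other genes of the list, such as Calb1, Penk and Foxp2, are not reported here.

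**Figure D3:**
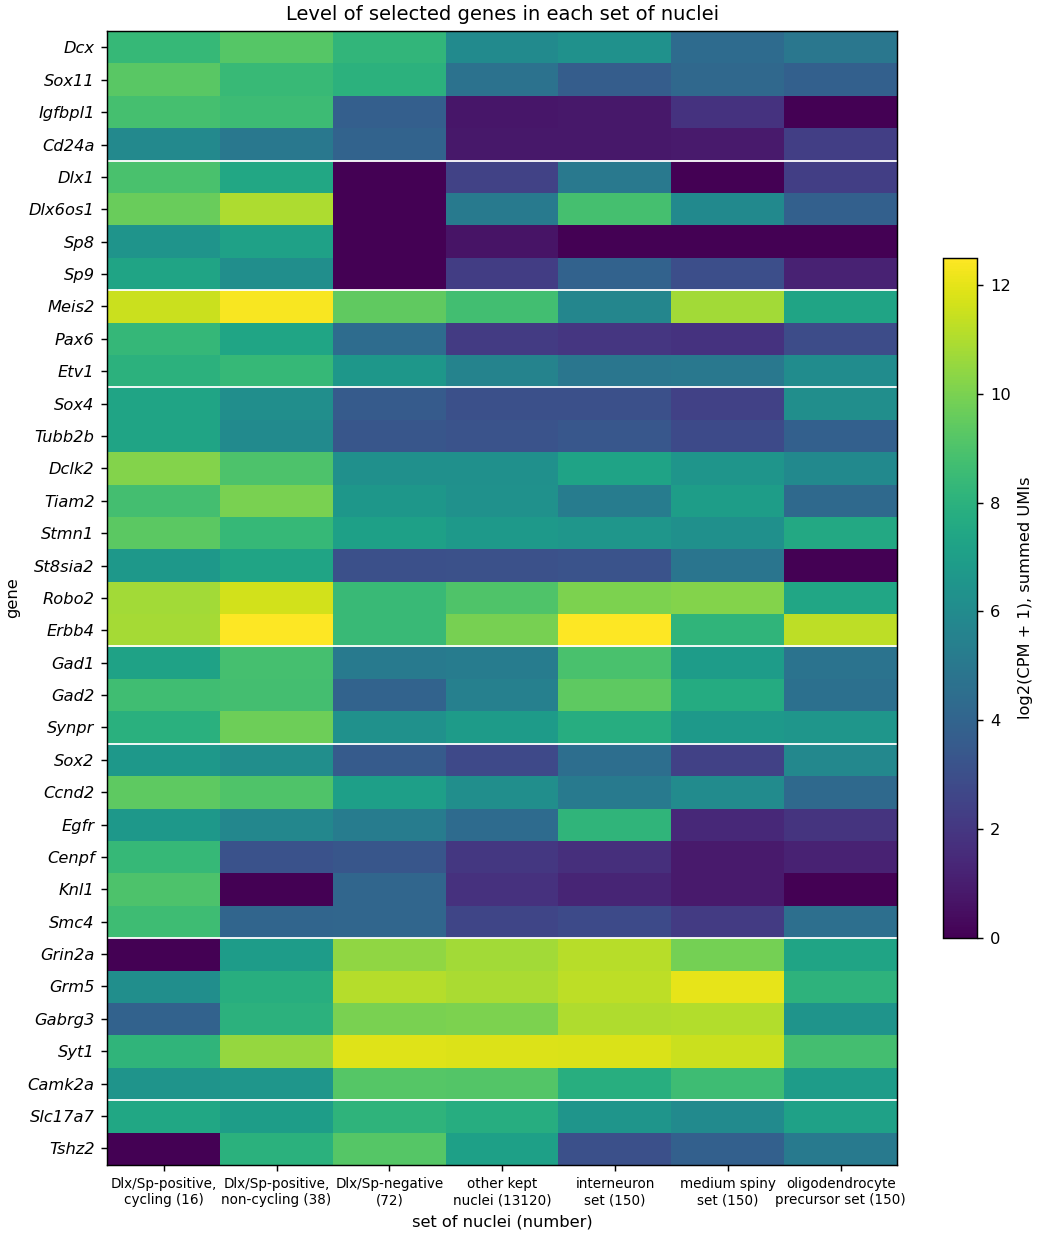
Level of 35 genes (rows, log2 of CPM + 1 of summed UMIs) in 7 sets of nuclei (columns, with the number of nuclei); white lines part the 4 genes of the score, the Dlx and Sp genes, lineage factors, neuroblast genes, GABAergic genes, progenitor and division genes, synaptic genes, and Slc17a7 with Tshz2. The Dlx/Sp-positive columns are brighter than the other kept nuclei in the rows of Meis2, Dclk2, Robo2 and Gad2 and darker in that of Grin2a, while the Dlx/Sp-negative column is close to the other kept nuclei in most rows other than the score and Dlx/Sp genes.

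Genes of mature synapses were low in the same 54 nuclei. Of the glutamate receptor subunits 12 of 17 were lower and none higher (median -1.80). The NMDA receptor subunit Grin2a was at 127, 69.5 and 0 CPM in libraries 1 to 3, against 1678 to 1856, a log2 ratio of -4.52 (-5.36 to -3.80). The metabotropic receptor Grm5 was at 184, 243 and 0 CPM, against 1687 to 2068, a log2 ratio of -3.47 (-4.00 to -2.99). Library 3 had no UMI of either gene in its 7 nuclei. Grm7 (log2 ratio -3.37, -3.87 to -2.92) and the AMPA receptor subunit Gria3 (log2 ratio -3.19, -3.85 to -2.60) were low to a like extent, whereas Grin2b, the NMDA subunit of young neurons, was at -1.93 (-2.23 to -1.65).

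Of the chloride transporter and GABA-A receptor list 8 of 12 genes were lower and none higher (median -1.27), led by Gabrb1 (log2 ratio -2.83, -3.42 to -2.30) and Gabrg3 (log2 ratio -2.59, -3.12 to -2.11). The chloride importer Slc12a2 and the exporter Slc12a5 were not called, with 7 and 13 UMIs. Of the synaptic vesicle and mature neuron list 9 of 15 were lower and 1 higher (median -1.28). Camk2a, the kinase of excitatory synapses, was at 91.3 CPM against 575 CPM (log2 ratio -2.65, -3.41 to -1.99), and the vesicle calcium sensor Syt1 at 1018, 949.9 and 241 CPM in libraries 1 to 3, against 3403 to 3748 (log2 ratio -1.79, -2.00 to -1.60). Map2, a dendritic microtubule protein, was the 1 higher gene (log2 ratio 1.35, 1.18 to 1.52). Of 5 sodium channel genes Scn2a (log2 ratio -1.18, -1.73 to -0.68) and Scn8a (log2 ratio -1.03, -1.57 to -0.53) were lower. Of 5 neurotrophin and survival genes 3 were lower, among them the BDNF receptor Ntrk2 (log2 ratio -1.07, -1.39 to -0.76), and Igf1r, the receptor of IGF1, was higher (log2 ratio 1.27, 1.00 to 1.53). Of 3 immediate early genes Homer1 (log2 ratio -1.68, -2.24 to -1.17) and Nr4a1 (log2 ratio -1.29, -2.92 to -0.07) were lower.

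**Figure D4:**
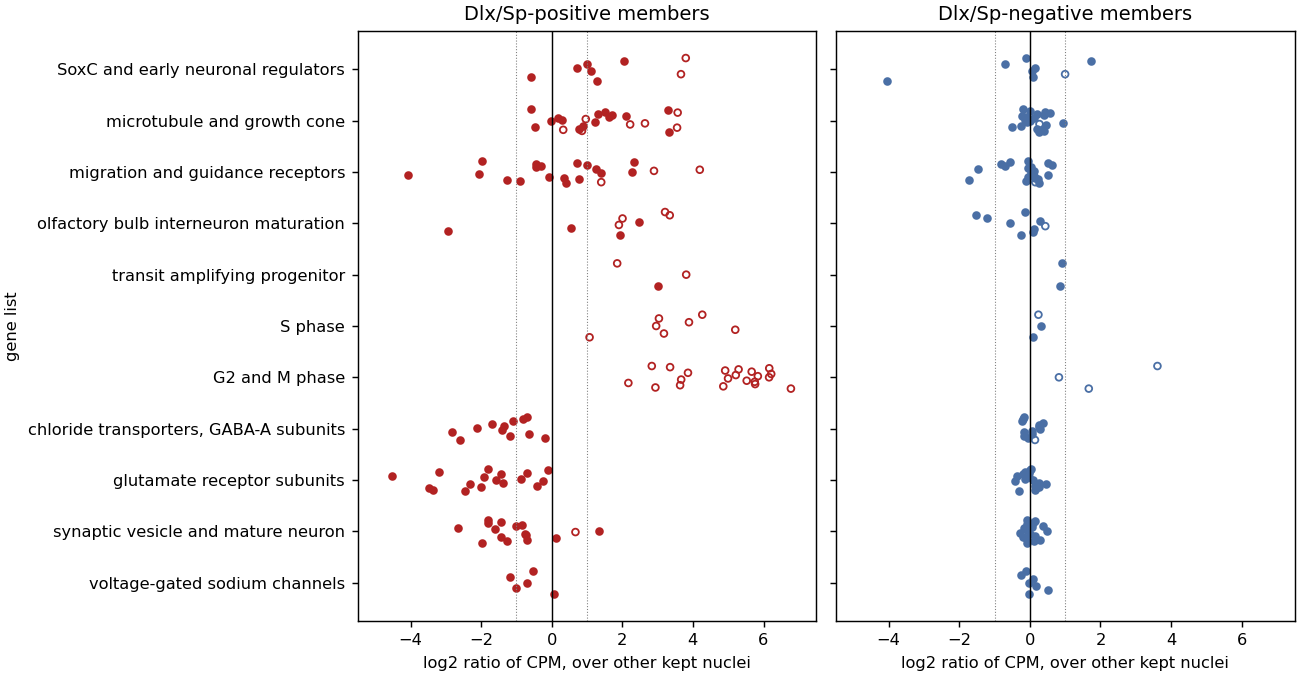
Log2 ratio of CPM over the other kept nuclei (horizontal axis; dotted lines mark 2-fold) for each gene of 11 lists that could be called, in the 54 Dlx/Sp-positive members (left) and the 72 Dlx/Sp-negative members (right). Filled points are genes with at least 10 UMIs expected and open points entered through their own UMIs. On the left the list medians are 1.22 for microtubule and -1.80 for glutamate receptor genes, and on the right both lie near 0.

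The genes outside the lists with the largest ratios included several regulators. Sox2ot was at 5795, 5549 and 11634 CPM in libraries 1 to 3, against 145 to 233, a log2 ratio of 5.11 (5.03 to 5.19). Reads from the stretch where Sox2ot and Sox2 overlap on the same strand cannot be told apart. Sox2 itself, the progenitor factor, had 16 UMIs and stood at 81.2 CPM against 5.79 CPM, through its own UMIs. Pbx3 (log2 ratio 4.64, 4.45 to 4.83), Tox3 (log2 ratio 3.98, 3.71 to 4.23) and the zinc finger repressor Zbtb20 (log2 ratio 3.81, 3.69 to 3.92) followed, of which Pbx3 and Tox3 entered only through their own UMIs in these nuclei, and Zbtb20 and Pbx3 overlap other annotated transcripts. The nuclear factor I genes Nfia (log2 ratio 2.54, 2.38 to 2.70) and Nfib (log2 ratio 2.37, 2.24 to 2.51) and the RNA-binding protein Msi2 (log2 ratio 2.36, 2.15 to 2.56) were also among the 15 largest. Among the smallest ratios were 3 genes with few UMIs. Slit3, a guidance ligand, had 1 UMI (log2 ratio -6.85, -12.16 to -4.37), and Car10 (log2 ratio -5.54, -7.42 to -4.18) and the cadherin Cdh18 (log2 ratio -5.40, -7.28 to -4.05) had 4 UMIs each.

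Markers of other cell types gave a measure of what else the 54 nuclei could hold. All 5 cortical interneuron markers with 10 or more UMIs expected were higher, among them Adarb2 (3831 CPM against 378 CPM), an RNA editing family member of caudal interneurons, Sst (223 CPM against 77.9 CPM) and Sox6 (441 CPM against 122 CPM), while Lhx6, which defines medial interneurons, had 1 UMI. The vesicular glutamate transporter Slc17a7 had a UMI in 42.6% of these nuclei, or 31.5% after thinning to 1500 UMIs, against 74.6% and 28.2% in the other kept nuclei. The committed oligodendrocyte precursor set and the interneuron set, which should lack it, had 20.1% and 13.3% after thinning, and the thinned share of the other nuclei lay close to that of the Dlx/Sp-positive members. Summed over all 9 excitatory markers the level was 608, 602 and 392 CPM in libraries 1 to 3, against 713 to 888 in the other nuclei.

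Glial markers were also present. By library their summed levels lay below, within or above the range of the other kept nuclei, which include glia. The 9 oligodendrocyte markers summed to 989, 683 and 1206 CPM in libraries 1 to 3, against 450.2 to 735 CPM in the other nuclei, with Opalin at 0. A single cycling nucleus in library 3 held 31 UMIs of these markers. The 8 microglia markers summed to 622, 266 and 121 CPM, against 172 to 262 CPM, and 22 of their 72 UMIs lay in 1 nucleus of library 1. The 13 astrocyte and neural stem cell markers summed to 664, 949.9 and 663 CPM, against 751 to 855 CPM, with Aldh1l1, Gjb6 and Thbs4 at 0. Gpr17, Bmp4 and Enpp6, which define committed oligodendrocyte precursors, had no UMI, and Pdgfra, the marker of earlier precursors, had 1. In these nuclei 3 UMIs equal 15.2 CPM, so such counts cannot show that a gene was absent. Apart from Vcan, other genes of the precursor lists are not given singly here. The cycling nucleus at rank 22 held 10 UMIs of the committed precursor list. Vcan, a proteoglycan on the precursor list, was at 304 CPM against 23.6 CPM, also through its own UMIs. None of the 7 endothelial and mural markers had a UMI. The part of such RNA in the results was not tested.

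Set against 150 cortical interneurons, chosen as the kept nuclei with the highest score of Gad1, Gad2, Slc32a1 and Nxph1, the 54 Dlx/Sp-positive members had 346 of 2953 genes higher (11.7%) and 626 lower (21.2%), with a median log2 ratio of 0.07. Meis2 was at 4452 and 4066 CPM in libraries 1 and 2 of the members, against 122 and 56.1 CPM in the interneurons, a log2 ratio of 6.41 (6.06 to 6.78). Of the microtubule list 8 of 15 genes were higher and none lower, and Tiam2 (log2 ratio 4.42, 3.96 to 4.91) and Dclk2 (log2 ratio 2.31, 1.99 to 2.62) were among them. The cell cycle gene Ccnd2, cyclin D2, was higher (log2 ratio 4.09, 3.59 to 4.62). Pbx3 (log2 ratio 4.11, 3.76 to 4.47), Zbtb20 (log2 ratio 3.95, 3.74 to 4.16), Nfia (log2 ratio 3.41, 3.16 to 3.67) and the adhesion protein Sdk2 (log2 ratio 4.78, 4.18 to 5.44) were among the largest outside the lists.

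Synaptic receptors were lower than in the interneurons too. Of the glutamate receptor list 13 of 17 genes were lower and none higher (median -1.50), with Grin2a (log2 ratio -4.92, -5.76 to -4.19) and the kainate receptor subunit Grik1 (log2 ratio -4.67, -5.54 to -3.92) the lowest. Of the chloride and GABA-A list 7 of 11 were lower (median -1.52), among them Gabrg3 (log2 ratio -3.56, -4.10 to -3.08). Guidance genes again split, 4 higher and 6 lower of 17. The netrin receptor Dcc (log2 ratio 2.14, 1.95 to 2.32), Ncam1 (log2 ratio 1.77, 1.56 to 1.99), which carries polysialic acid, the ephrin receptor Epha4 (log2 ratio 2.94, 2.38 to 3.49) and Robo2 (log2 ratio 1.35, 1.20 to 1.49) were higher. The repulsive netrin receptors Unc5c (log2 ratio -2.64, -3.01 to -2.29) and Unc5d (log2 ratio -2.35, -2.83 to -1.91), Dab1 (log2 ratio -2.39, -2.76 to -2.04) and Erbb4 (log2 ratio -1.08, -1.18 to -0.99) were lower. Erbb4 was therefore above the other kept nuclei as a whole and below the interneurons. Interneuron subtype genes Lamp5 (3 UMIs), Npy (log2 ratio -1.22, -1.94 to -0.59), Reln (log2 ratio -4.93, -6.37 to -3.80) and the potassium channel Kcnc2 (log2 ratio -4.64, -5.37 to -3.99) were lower. Adarb2 and Sst were not called, at 3831 CPM against 2934 CPM and 223 CPM against 199 CPM.

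The 72 Dlx/Sp-negative members looked much like the other kept nuclei. Only 129 of 7984 genes were higher (1.62%) and 154 lower (1.93%), with a median log2 ratio of 0.10. Among genes with at least 10 UMIs expected these shares were 0.394% and 2.17%, with a median of 0.05. None of 17 glutamate receptor subunits, 17 synaptic vesicle and mature neuron genes, 12 chloride and GABA-A genes, 7 sodium channels and 20 microtubule and growth cone genes was called, and the list medians lay between -0.01 and 0.16. Grin2b was at 1871, 1982, 1999.8 and 1743 CPM in libraries 1 to 4, against 1858 to 1953, and Syt1 at 3559, 4412, 3679.7 and 3401 CPM, against 3403 to 3748. Both genes overlapped the other nuclei in level. Slc17a7 was detected in 77.8% of the 72 nuclei, and after thinning in 31.0%, against 28.2% of the other kept nuclei and 31.5% of the Dlx/Sp-positive members. Tubb2b and Sox4, high in the Dlx/Sp-positive members, had 5 and 6 UMIs.

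A few genes were called higher in these 72 nuclei than in the other kept nuclei. Tshz2 was at 212, 435, 1199.9 and 1239.6 CPM in libraries 1 to 4, against 122 to 148, a log2 ratio of 2.13 (1.97 to 2.29). Vwc2l, a secreted neural protein, was at 98.4, 138, 667 and 457 CPM, against 58.7 to 79.4, a log2 ratio of 1.75 (1.48 to 2.00). Vwc2l in library 1 was near the other nuclei, and both genes were highest in libraries 3 (3 nuclei) and 4. The UMIs came from a minority of nuclei, since Tshz2 was detected in 14 of the 72 and Vwc2l in 20. A like share of the Dlx/Sp-positive members had Tshz2, so its detection did not part the 2 subsets. The serotonin receptor gene Htr2c was at 172, 115, 347 and 256 CPM, against 49.6 to 79.8, a log2 ratio of 1.57 (1.27 to 1.85), from 15 nuclei, and was the 1 called gene of 5 serotonin receptors. Etv1 was higher as well (log2 ratio 1.06, 0.64 to 1.45). Pdgfra had 23 UMIs in 7 nuclei and stood at 42.3 CPM against 13.7 CPM.

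Some interneuron markers, guidance receptors and oligodendrocyte markers were lower in them. Adarb2 (log2 ratio -2.07, -2.51 to -1.67), Erbb4 (log2 ratio -1.46, -1.67 to -1.26) and the ephrin receptor Ephb1 (log2 ratio -1.71, -2.34 to -1.15) were lower, and St18, a factor of oligodendrocytes and striatal neurons, had 3 UMIs (log2 ratio -4.06, -6.33 to -2.51). Of 6 oligodendrocyte markers 4 were lower (median -1.18). Outside the lists Kcnc2 (log2 ratio -1.32, -1.63 to -1.02), Il1rapl2 (log2 ratio -1.24, -1.55 to -0.94) and Galntl6 (log2 ratio -1.21, -1.39 to -1.04) were among the smallest ratios. The choice of nuclei without a Dlx/Sp gene partly fixes the low interneuron markers. Of the 150 nuclei of the interneuron set, 118 had at least 1 Dlx/Sp gene. The other kept nuclei include glia and interneurons, and the part of that makeup in these ratios was not tested.

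Transcripts of cell division were found most often in the Dlx/Sp-positive members. A nucleus was counted as cycling with at least 1 UMI of Top2a, a topoisomerase of dividing cells, or Mki67, which encodes the Ki-67 antigen. This held for 27 of the 150 members (18.0%, 12.2 to 25.1) and for 7.94% of the other kept nuclei, and for 12.1% and 1.62% after thinning to 1500 UMIs. In the interneuron set, of nuclei that do not divide, the share was 0.667%, and 0 of 150 after thinning, with an interval up to 2.43%. In the medium spiny neuron set, which does not divide either, it was 10.0% (5.71 to 16.0), or 2.67% (0.731 to 6.69) after thinning. Of the 54 Dlx/Sp-positive members 16 were cycling (29.6%, 18.0 to 43.6; 27.8% after thinning), of the 24 with 1 Dlx/Sp gene 1, and of the 72 Dlx/Sp-negative members 10 (13.9%, 6.87 to 24.1; 2.82% after thinning). The thinned value of the Dlx/Sp-negative members, 2 of 71 nuclei, had an interval of 0.343% to 9.81% that holds the 1.62% of the other kept nuclei. Libraries 1 to 4 held 10, 12, 3 and 2 cycling members, and 4, 10, 2 and 0 that were Dlx/Sp-positive too.

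Other division genes parted these nuclei further. Of 10 further genes of G2 and M phase (Cdk1, Ccnb1, Ccna2, Bub1, Cenpe, Cenpf, Kif11, Knl1, Tpx2 and Aspm), at least 2 were detected in 16 members, and 15 of the 16 had Top2a or Mki67. Among those 15, 12 were Dlx/Sp-positive and 2 Dlx/Sp-negative. Among the 10 Dlx/Sp-negative cycling nuclei 8 had exactly 1 UMI of Mki67, none of Top2a and at most 1 of the 10 genes. The other two were the nucleus at rank 66 in library 1, with 6 UMIs of Top2a, 4 of Mki67 and 7 of the 10 genes, and the nucleus at rank 147 in library 3, with 13, 4 and 5. Among the Dlx/Sp-positive cycling nuclei the nucleus at rank 10 in library 2 had 14 UMIs of Top2a and 9 of the 10 genes, and the nucleus at rank 22 in library 3 had 22 UMIs and 7 genes. The nucleus at rank 22 also held 31 UMIs of oligodendrocyte markers, and the nucleus at rank 55 in library 1, likewise Dlx/Sp-positive and cycling, held 22 UMIs of microglia markers. The part of RNA from other cells in these nuclei was not tested.

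**Figure D5:**
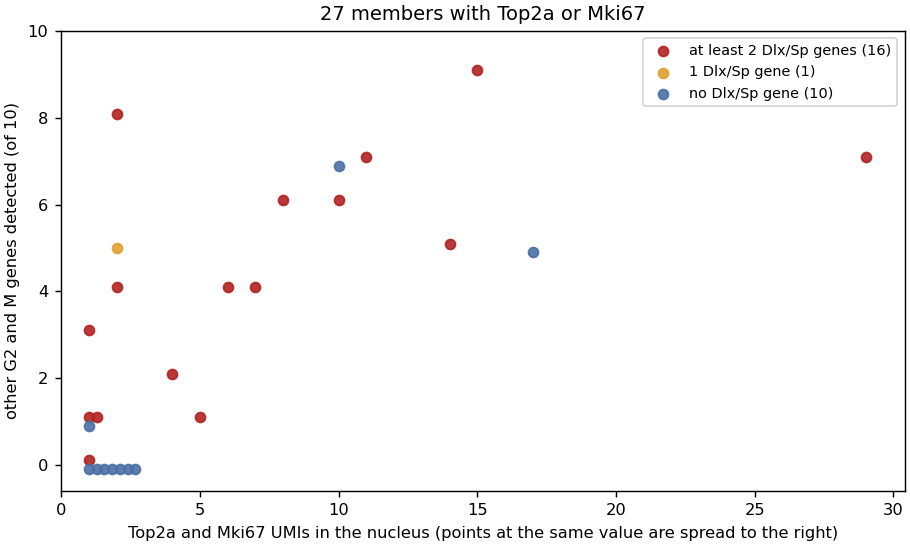
The 27 members with Top2a or Mki67: UMIs of the 2 genes in the nucleus (horizontal axis) against how many of 10 other G2 and M phase genes were detected (vertical axis, points offset slightly by group). Of 10 nuclei without a Dlx/Sp gene, 8 lie at 1 UMI with at most 1 further gene, whereas 12 Dlx/Sp-positive nuclei have at least 2.

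Promoters of the division genes were searched for elements known from the cell cycle. Many genes of G2 and M phase are held silent in resting cells by the DREAM complex at the cell cycle genes homology region (CHR), and some also carry CCAAT boxes bound by NF-Y. Both were searched on either strand in the 250 bases before each RefSeq gene start (GRCm38.p6), as TTTGAA for the CHR and CCAAT for the box. Matches of the 2 may share letters. The RefSeq table held 33 promoters for 31 of the 35 genes formed by the G2 and M phase list, Top2a and Mki67, and for 24 of the 28 S phase genes. Of the 33 promoters 13 held the CHR letters (39.4%), 24 the CCAAT letters (72.7%) and 12 both (36.4%). Of all 32817 promoters of that length 16.0%, 33.8% and 5.54% did. Of 27 promoters of S phase genes 14.8%, 70.4% and 11.1% did. Most promoters of either list thus did not hold the CHR letters. The 4 genes of the list with the most UMIs in the cycling Dlx/Sp-positive members among those with both motifs are shown, with matches of either strand in capitals. Hmgb2 (22 UMIs there) encodes a chromatin protein, Kif11 (18 UMIs) the mitotic kinesin Eg5, Smc2 (17 UMIs) a condensin subunit and Ect2 (12 UMIs) an exchange factor of cytokinesis. The windows are chr8:57511593-57511842 on the plus strand, chr19:37376132-37376381 on the plus strand, chr4:52438971-52439220 on the plus strand and chr3:27153855-27154104 on the minus strand.
Hmgb2: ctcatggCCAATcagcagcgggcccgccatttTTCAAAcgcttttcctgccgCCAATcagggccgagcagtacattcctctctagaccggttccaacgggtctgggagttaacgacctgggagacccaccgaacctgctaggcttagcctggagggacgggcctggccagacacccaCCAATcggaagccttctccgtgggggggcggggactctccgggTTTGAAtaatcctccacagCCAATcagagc
Kif11: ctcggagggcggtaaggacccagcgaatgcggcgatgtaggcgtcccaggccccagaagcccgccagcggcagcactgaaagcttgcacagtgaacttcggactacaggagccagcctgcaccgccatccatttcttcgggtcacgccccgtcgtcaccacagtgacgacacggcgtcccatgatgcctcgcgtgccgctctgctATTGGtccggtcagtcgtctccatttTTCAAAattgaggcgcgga
Smc2: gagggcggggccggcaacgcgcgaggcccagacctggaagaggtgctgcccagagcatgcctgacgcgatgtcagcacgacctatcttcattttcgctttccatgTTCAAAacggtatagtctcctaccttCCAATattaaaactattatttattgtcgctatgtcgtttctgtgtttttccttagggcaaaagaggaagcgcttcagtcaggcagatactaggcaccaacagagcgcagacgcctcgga
Ect2: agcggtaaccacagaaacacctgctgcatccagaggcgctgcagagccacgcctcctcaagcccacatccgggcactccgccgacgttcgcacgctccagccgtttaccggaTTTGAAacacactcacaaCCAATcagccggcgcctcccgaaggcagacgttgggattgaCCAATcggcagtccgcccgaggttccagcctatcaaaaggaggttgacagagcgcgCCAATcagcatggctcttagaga
A match is a description of the letters and not a site in use. Hmgb2 held 4 CCAAT and 2 CHR matches, Ect2 held 3 and 1, and Kif11 and Smc2 held 1 of each.

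In the 16 cycling Dlx/Sp-positive members, set beside the 38 without Top2a or Mki67, division genes were high, and no call was made because fewer than 20 nuclei cycled. The 33 G2 and M phase genes summed to 6002, 6576 and 4731 CPM in libraries 1 to 3 of the cycling nuclei, against 242, 103 and 319 CPM in the others. The 28 S phase genes summed to 2229 CPM, against 500.02 CPM over the others. Knl1 had 35 UMIs in the cycling nuclei and none in the others, a log2 ratio of at least 4.43 with 3 UMIs as the floor. Cenpf, a centromere protein, was at 333 CPM against 7.81 CPM with 1 UMI in the non-cycling nuclei, and the condensin subunit Smc4 was at 391 CPM against 15.6 CPM with 2. Cycling and non-cycling nuclei did not overlap by library for the summed G2 and M genes, which the choice by Top2a and Mki67 partly fixes.

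Lineage genes were present in cycling and other Dlx/Sp-positive members. Pax6 was at 318 CPM against 164 CPM, Gad2 at 405 CPM against 438 CPM and Gad1 at 145 CPM against 445 CPM. Meis2 was at 1707, 2652 and 4871 CPM in the cycling nuclei of libraries 1 to 3, against 5274 CPM over the others. Erbb4 was at 1589, 1803 and 2157 CPM, against 6375, and Adarb2 at 706, 1617 and 348 CPM, against 5289. In libraries 1 to 3, with 4, 10 and 2 cycling nuclei, levels of Erbb4, Adarb2 and Meis2 lay below those over the others. The values of library 3 rest mostly on the nucleus at rank 22, with 12464 UMIs against 1908 in the nucleus at rank 11. The nucleus at rank 22 also held 31 UMIs of oligodendrocyte markers, and the part of that nucleus in these levels was not tested. Levels of synaptic genes were lower too: Syt1 was at 289.5 CPM against 1445 CPM, and Rims1, an active zone scaffold, at 57.9 CPM against 758 CPM from 4 UMIs. Dclk2 (1173 CPM against 508 CPM) and Stmn1 (651 CPM against 328 CPM) were at higher levels in the cycling nuclei. Egfr, a receptor of transit amplifying progenitors, had 7 UMIs in each group (101 CPM against 54.7 CPM).

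Over all 27 cycling members against the 123 others, 382 of 3889 genes were higher (9.82%) and 252 lower (6.48%), decided in libraries 1 and 2. Among 3144 genes with 10 or more UMIs expected 5.12% were higher and 8.02% lower, with a median of -0.02. Pola1, the catalytic subunit of DNA polymerase alpha, was at 329, 429.6 and 748 CPM in libraries 1 to 3, against 76.7 CPM over the others (log2 ratio 2.30, 1.74 to 2.86). Lockd, a noncoding RNA downstream of Cdkn1b, was at 493, 361 and 528 CPM, against 12.8 (log2 ratio 4.88, 3.86 to 6.08). The formin Diaph3 (log2 ratio 3.58, 2.75 to 4.48), the replication repair gene Mms22l (log2 ratio 3.80, 2.87 to 4.83; it entered only through its own UMIs in the cycling nuclei) and Dach1 (log2 ratio 3.50, 2.91 to 4.12) were also higher, as were Dlx1 (log2 ratio 2.61, 1.80 to 3.43) and Pax6 (log2 ratio 2.24, 1.46 to 3.02). No UMI of these 7 genes was seen in the cycling members of library 4, which held 2. Glutamate receptors were lower for 6 of 16 genes, sodium channels for 3 of 5 and serotonin receptors for 2 of 2, Htr2c (log2 ratio -2.69, -4.59 to -1.29) and Htr1f (log2 ratio -1.89, -2.98 to -0.97). Tshz2 had the lowest ratio outside the lists (log2 ratio -4.34, -6.22 to -2.97). Only 15 of the 27 had at least 2 of the 10 further G2 and M phase genes, and 8 had none of them. Of the 27 cycling members 16 were Dlx/Sp-positive, and of the 123 others 38, and the part of that makeup in these ratios was not tested.

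The reporter and the receptors of the injected drug were seen in few members. The TRE reporter transcript was detected in 7 of 150 members (4.67%, 1.90 to 9.38), against 8.75% of the other kept nuclei, and after thinning in 2.01% against 1.85%, so no difference was detectable at equal depth. Of the 7, 6 were Dlx/Sp-negative and 1 Dlx/Sp-positive. The transactivator tTA was detected in 2 members (1.33%, 0.162 to 4.73). Htr2a, the main receptor of DOI, was detected in 15 members (10.0%), 13 of them Dlx/Sp-negative and 2 Dlx/Sp-positive, against 21.4% of the other kept nuclei, and after thinning in 2.01% (0.417 to 5.77) against 4.88%. In the committed oligodendrocyte precursor set 1.34% had a UMI after thinning. Htr2c was detected in 20 members (13.3%; 8.05% after thinning), against 14.8% and 6.00%. Htr1f was at 71 CPM against 264 CPM in the Dlx/Sp-positive members (log2 ratio -1.90, -2.77 to -1.15), though with 0 CPM in library 1 and 271 CPM in library 3. DOI and saline samples cannot be told apart in any of these values.

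Set beside 3 sets of 150 nuclei chosen by the markers of other cell types, the 150 members as a whole had, against the cortical interneurons, 211 of 4122 higher (5.12%) and 268 lower genes lower (6.5%). Against striatal medium spiny neurons (Ppp1r1b, Rgs9, Adora2a and Drd1) 383 of 3625 were higher (10.6%) and 353 lower (9.74%). Against committed oligodendrocyte precursors (Gpr17, Bmp4, Enpp6 and Bcas1) 577 of 3264 were higher (17.7%) and 439 lower (13.4%). The numbers of genes tested and of libraries used differed between the 3 comparisons, and the difference between them was not tested. Sp8 had no UMI in the 150 interneurons, where it was detected in 18 members, and Dlx6os1 was detected in 109 of the interneurons and 68 of the members.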

How the data were processed

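The deposited matrix holds counts of UMIs per gene and barcode, which the authors made with Cell Ranger 7.1.0 and the mm10 genome, per the submitters' processing notes. It pools 4 libraries marked by barcode endings, and 0 columns of per-sample values were left unused. Nuclei were kept and members chosen as given in the report, and 9132 barcodes were removed. Doublets were scored with Scrublet per library and left in, except in an alternative. UMIs were summed over groups of nuclei, scaled to CPM and compared as ratios, without a test because the groups form 1 sample. The procedure was tested on simulated data. Median depth per kept nucleus was 7407 to 10375 UMIs by library. The members, gene lists and comparison sets were chosen with earlier results of these data known. Genes of the lists could be named, with at most the 4 largest called per list and direction given in full. Outside the lists, called genes with at least 100 UMIs seen or expected in the smaller group (30 within members) and no predicted, mitochondrial or ribosomal name were ranked, and the 15 largest and 10 smallest ratios could be named for all members against the others, and 5 and 5 elsewhere; the 15 and 10 were also used for the Dlx/Sp-positive members. Alternatives were other mitochondrial, gene and marker limits, 100 or 250 members, doublets left out, thinning to 1500 UMIs, per-nucleus means, each library left out, at least 500 UMIs and a 4-fold limit. Some genes of the lists are not reported here. Comparisons of the Dlx/Sp subsets were added after seeing the data. Python 3.11.15 with numpy 2.4.6, scipy 1.17.1, pandas 2.3.3, scanpy 1.11.5 and matplotlib 3.10.9 was used.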

Additional observations from a re-analysis of the deposited data

Results flagged for a closer look

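A signal lay in barcodes that the comparisons did not use. Of the barcodes removed for more than 5% mitochondrial UMIs, 48 otherwise passed the limits, had at least 2 of the 4 genes and scored at least as high as the lowest member. Libraries 1 to 4 held 19, 10, 1 and 18 of them. Of the 48, 16 had at least 2 Dlx/Sp genes and 19 had Igfbpl1.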

How the results depend on the processing

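Members chosen again with at most 1% mitochondrial UMIs shared 18 nuclei with the 150: 7.33% were Dlx/Sp-positive, TREmcherry was found in 11.3%, Htr2c in 20.7% and Htr2a in 23.3%. Genes called higher were 88 against the other kept nuclei, 79 for the Dlx/Sp-negative members, 196 for cycling members and 391 against interneurons; against medium spiny neurons 88 were higher and 156 lower, and against oligodendrocyte precursors 206 and 273. Dach1 turned to a log2 ratio of -0.51. With at most 20%, 46.7% were Dlx/Sp-positive, 569 genes were higher and 236 lower in the members, and 228 higher in cycling members. With at least 3 of the 4 genes, 35.4% cycled and 60.4% were Dlx/Sp-positive; 272 genes were lower in the members, 619 higher and 272 lower in the Dlx/Sp-positive members, and 203 and 336 against interneurons; Tshz2 turned to -2.07 in the members and Nrp1 to 0.27 in the Dlx/Sp-positive members. With 100 members, 52% were Dlx/Sp-positive, 1110 genes were higher and 341 lower, and the counts were 223 and 90 for the Dlx/Sp-negative members, 207 higher for cycling members and 372 higher against oligodendrocyte precursors. With 250 members, 72.4% lay in libraries 1 and 2, 25.6% were Dlx/Sp-positive, Htr2c was found in 20.4%, and genes called higher were 196 in the members, 68 in the Dlx/Sp-negative members, 342 against interneurons and 918 against oligodendrocyte precursors; Cpne4 turned to 0.14 in the Dlx/Sp-positive members. Thinned to 1500 UMIs, 12.1% cycled, 24.2% were Dlx/Sp-positive, and Htr2c and Htr2a were found in 8.05% and 2.01%; 185 genes were higher in the members, 583 higher and 467 lower in the Dlx/Sp-positive members, 52 and 72 in the Dlx/Sp-negative members, 81 and 93 in cycling members, 53 and 178 for the Dlx/Sp-positive members against interneurons, and for all members 49 and 88 against interneurons, 95 and 142 against medium spiny neurons, and 159 and 163 against oligodendrocyte precursors. Per-nucleus means gave 211 genes lower in the members, at least 2 of 10 G2 and M phase genes gave 10.7% cycling, and a 4-fold limit left 57 higher and 8 lower. Leaving out each library in turn gave 325 to 642 genes higher in the members (the most without library 4), 912 to 1407 in the Dlx/Sp-positive members (the fewest without library 2), and 193 to 295 against interneurons (the fewest without library 2). The cause was not tested for any of these. Thinning removes UMIs, so fewer genes could be called. Of 1037 log2 ratios of named genes under alternatives, 728 stayed within their counting interval, 305 moved beyond it and the 4 named turned. With at most 1% mitochondrial UMIs no library had 10 Dlx/Sp-positive members, and with 3 genes required too few members cycled or were Dlx/Sp-negative, so those counts could not be given. No paired analysis was possible because no label ties a barcode ending to a sample, and no result comes from a test.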
